A study of Homo sapiens with 2 samples.

Results

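The genes described here encode collagens, laminins, fibronectin, SPARC, lysyl oxidases and the proteases and protease inhibitors that remodel them, in BE(2)-C, an established human neuroblastoma cell line. They were taken by symbol from the deposited expression table: every COL, LAMA, LAMB, LAMC, MMP, ADAMTS, TIMP and LOXL gene with a number, plus FN1, SPARC and LOX. This gave 81 of the 16005 genes in the table. The same symbol rule fits 108 genes in GENCODE release 29, and the other 27, among them MMP9, MMP3, COL4A3 and COL10A1, were not analysed here. The cells, labelled wild type, had grown for 7 days either in EMEM/F12 or in HPLM, whose name stands for human plasma-like medium, each with 10% FBS and 1% P/S. Polyadenylated RNA was sequenced from 3 numbered libraries per medium. The series lists 1 sample per medium and nothing states that the libraries came from separate cultures, so every SD, standard error and p-value here measures only the spread between libraries, which may be technical.

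Collagens are secreted, rope-like or network-forming proteins. Their chains assemble in fixed combinations inside the cell, are cross-linked outside it by lysyl oxidases, and are cut by matrix metalloproteinases (MMPs), while ADAMTS proteases trim procollagens and proteoglycans and TIMPs block the metalloproteinases. Laminins and type IV collagen form the sheet-like basement membrane, and fibronectin links fibrillar collagen to integrins on the cell. In neuroblastoma, matrix genes such as fibronectin and fibrillar collagens are known as features of the mesenchymal cell state, in contrast to the adrenergic state, which expresses HAND2, GATA3 and DBH.

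Library sizes ran from 17504237 to 21676080 recovered reads, and all values below are normalised reads, that is, reads divided by the authors' scaling factor for each library. A count of 3 reads, the most that a count of 0 allows, equals 2.68 to 3.49 normalised reads, which covers counting error only. The adrenergic markers were present: all 9 of 9 listed genes were in the table, and their summed level was 114130 to 136670 normalised reads in EMEM/F12 and 68682 to 70813 in HPLM. EMEM/F12 library 3 stood apart from EMEM/F12 libraries 1 and 2 in many of the matrix genes, and it is therefore given apart for most genes, as library 3 where no medium is named. Where only a range is printed for EMEM/F12, the range includes library 3. In that library 27 of the 81 genes were at least 2-fold above the mean of EMEM/F12 libraries 1 and 2, against 3.03% of all genes, and 0 were at least 2-fold below, against 0.843% of all genes.

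The matrix genes fell into a part that was read differently with and without EMEM/F12 library 3 and a part that was not. With all 6 libraries, 12 of the 81 genes rose in HPLM and 21 fell at an adjusted p under 0.05 in the authors' deposited table, against 26.8% of all genes higher and 28.8% lower. The share that rose was thus below that of all genes and the share that fell was close to it. The median log2 fold change was 0.28 over the 81 genes and 0.01 over all genes with a p-value. Without EMEM/F12 library 3, DESeq2 called 38 of the 81 genes higher and 22 lower, against 29.3% and 30.4% of all genes, with a median of 0.41. Of the 48 genes not called with all libraries, 26 were called higher without library 3, 2 were called lower and 20 stayed uncalled. Library 3 is set apart for its values in these same genes, so calls gained without it are a description and not independent support. All 12 risers and 20 of the 21 fallers kept their call, LAMA3 being the exception. Leaving out each of the 6 libraries in turn, 25 of the 33 calls were kept in every fit. The calls lost in at least 1 fit were those of LAMB2, MMP11 and 6 genes with means under 100 normalised reads, COL15A1, COL21A1, LAMA2, LAMA3, LAMB3 and ADAMTS6.

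**Figure D1:**
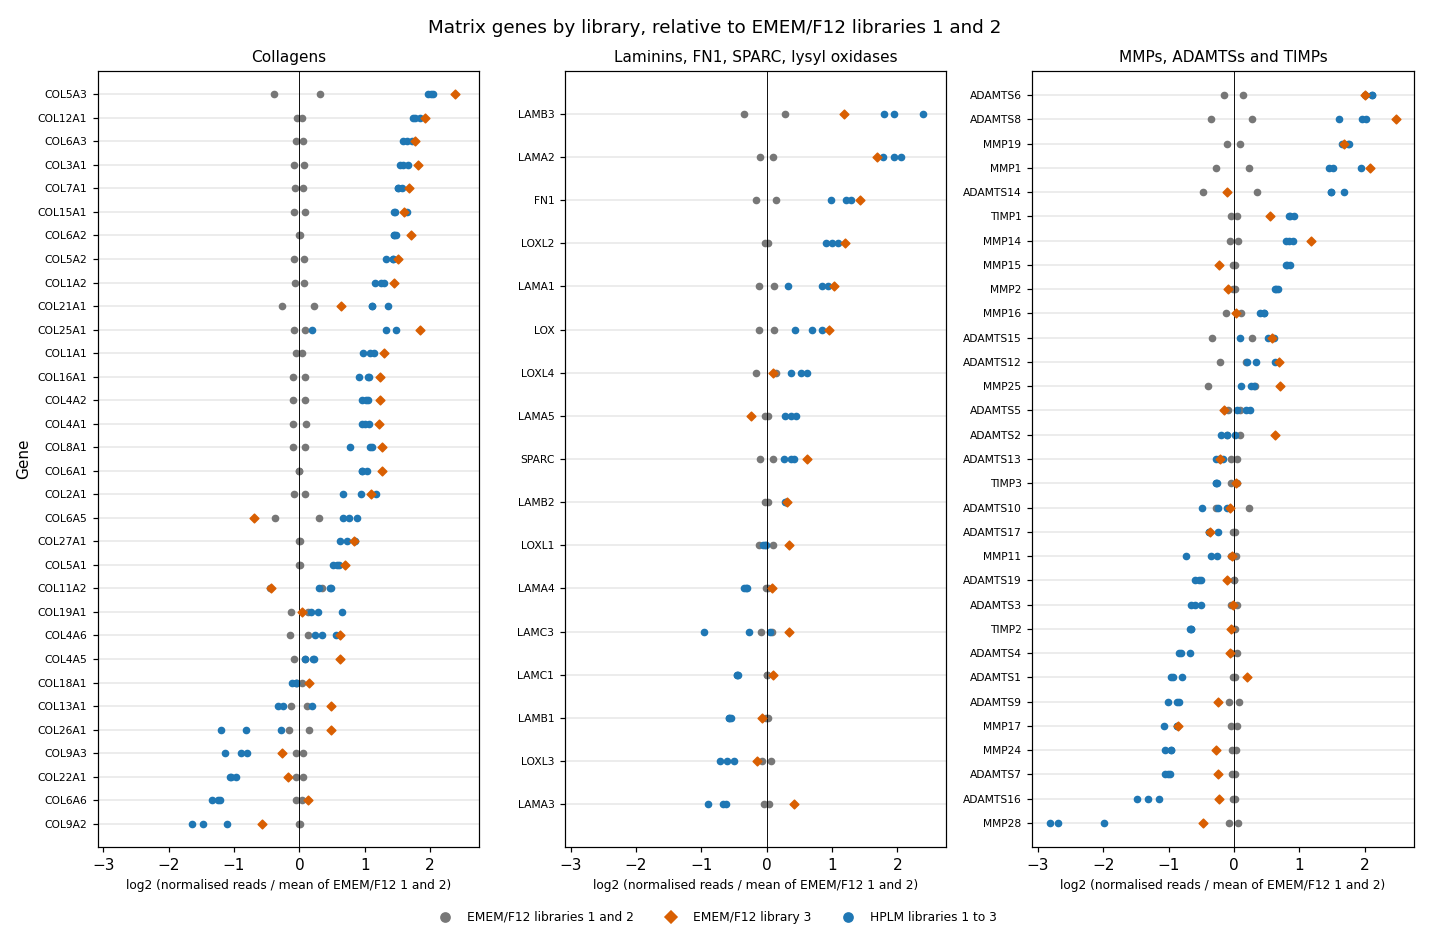
Matrix genes, each on its own line, with the log2 of normalised reads in each library over the mean of EMEM/F12 libraries 1 and 2 on the horizontal axis. Grey points are EMEM/F12 libraries 1 and 2, orange diamonds EMEM/F12 library 3 and blue points the 3 HPLM libraries. For most collagens in the left panel the orange diamond lies at or beyond the blue points, while for MMP2, TIMP2 and most ADAMTS genes it lies with the grey points.

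The fibrillar collagens, which form the load-bearing fibres of connective tissue, were the clearest case. COL1A1, the main chain of type I collagen (chr17:50183289-50201632, GRCh38), stood at 21276 and 22731 normalised reads in EMEM/F12 libraries 1 and 2, at 53750 in EMEM/F12 library 3, and at 46585, 48410 and 43007 in HPLM. COL1A2, the partner chain (chr7:94394561-94431232), stood at 6836 and 7491, then 19600 in library 3, and at 16975, 17621 and 15905 in HPLM. COL3A1, the chain of type III collagen, stood at 1148 and 1280, then 4272, and at 3640, 3856 and 3533 in HPLM. In each of these genes library 3 lay above every HPLM library and libraries 1 and 2 lay far below, so the media overlapped only through library 3.

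The mean of COL1A1 was 32586 ± 18343 in EMEM/F12 and 46001 ± 2748 in HPLM (SD, n = 3 libraries each), a log2 ratio of 0.50 ± 0.47 (SE), with an adjusted p of 0.316 in the authors' deposited table. Without library 3 the log2 ratio was 1.06 ± 0.07 (SE), a 2.09-fold higher level in HPLM, with a DESeq2 adjusted p of 1.03e-45. For COL1A2 the log2 ratio moved from 0.57 ± 0.53 to 1.23 ± 0.08 and the adjusted p from 0.294 in the authors' deposited table to 9.27e-61. For COL3A1 it moved from 0.72 ± 0.66 to 1.60 ± 0.09 and the adjusted p from 0.326 in that table to 5.28e-180. Leaving out a library that was high in these same genes raises the ratio and lowers the spread by construction. The adjusted p without library 3 therefore describe the other libraries and are no independent support for a rise. Over the 9 fibrillar collagens, 0 were called with all libraries in the authors' DESeq2 table, 0 had an unadjusted p under 0.05 there and 1 was called by edgeR, and 8 were called higher by DESeq2 without library 3. Over all genes 26.8% were higher and 28.8% lower in the authors' table, and 29.3% were called higher by DESeq2 without library 3. COL11A2, at 25.6 to 44.3 against 42.9 to 48.8, was the gene that edgeR called, with an adjusted p of 0.0483, and the one that DESeq2 did not call without library 3. Across the 9 genes the median log2 fold change was 0.54 with all libraries and 1.06 without library 3.

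Type V collagen, which regulates fibre diameter, followed type I in all 3 of its chains. COL5A1 stood at 1449 and 1426 normalised reads in EMEM/F12 libraries 1 and 2, at 2334 in library 3 and at 2131, 2188 and 2045 in HPLM. COL5A2 stood at 483 and 536, then 1458, and at 1379, 1380 and 1272 in HPLM. COL5A3 was low, at 11.3 and 6.97, then 47.7, and at 37.1, 37.7 and 35.8 in HPLM. Library 3 was the highest of the 6 for each chain. The step from libraries 1 and 2 to library 3 differed between the chains, at 1.62-fold, 2.86-fold and 5.21-fold, and the log2 ratios of HPLM without library 3 were 0.56 ± 0.03, 1.40 ± 0.08 and 2.01 ± 0.34 (SE), all called by DESeq2, with adjusted p of 4.22e-24, 1.73e-72 and 7.64e-05. COL2A1, the cartilage collagen, at 19.6, 22.1 and 44.6 against 39.9, 46.9 and 33.1, and COL27A1, at 42.3, 41.8 and 74.7 against 64.6, 69.9 and 76, were also called higher without library 3, with DESeq2 adjusted p of 0.0229 and 0.0126.

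The 12-gene plot of normalised reads sets these collagens beside genes in which library 3 did not stand apart.

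**Figure D2:**
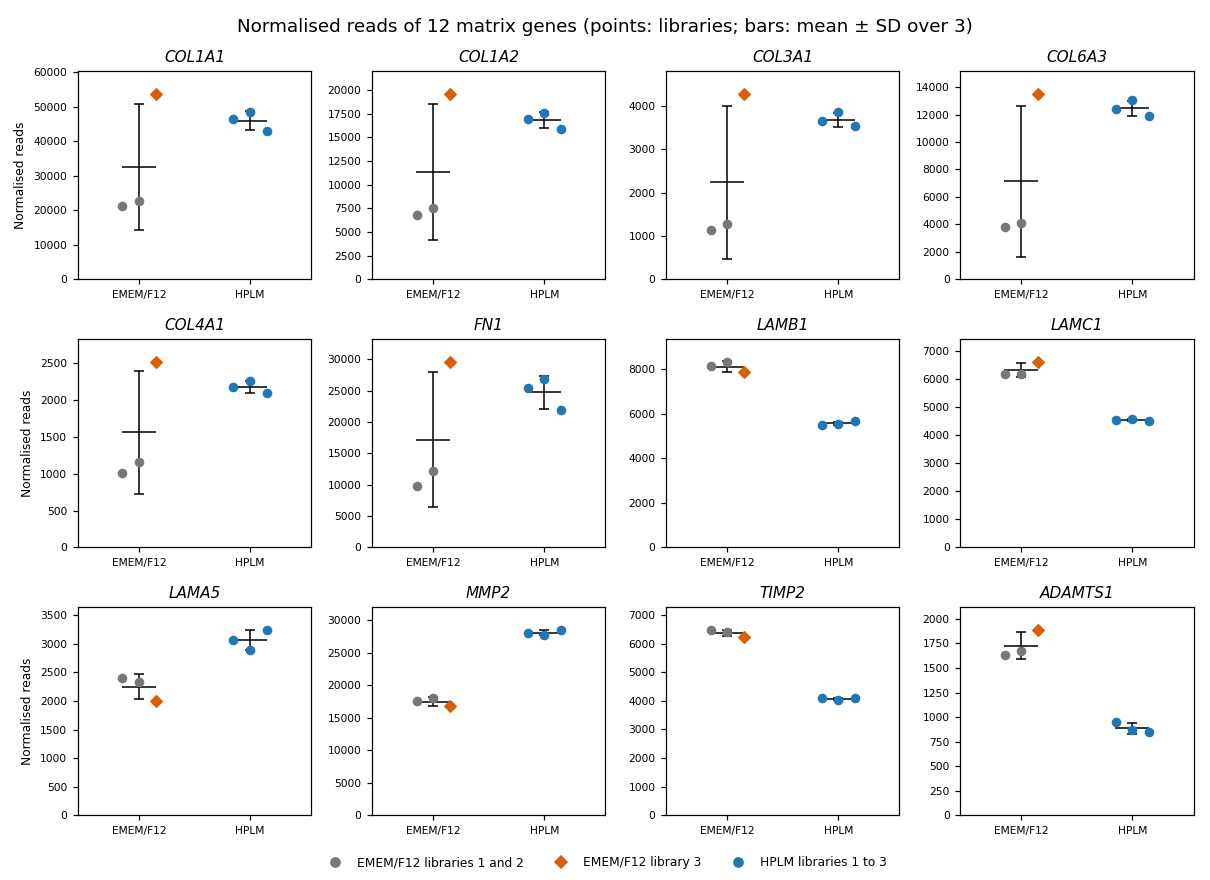
Normalised reads of 12 matrix genes in the 6 libraries, on a linear axis from 0 in each panel. Points are libraries (grey EMEM/F12 1 and 2, orange diamond EMEM/F12 3, blue HPLM), and black bars give each medium's mean ± SD (n = 3). In COL1A1 the orange diamond reaches 53750 while the grey points stay at 21276 and 22731. In MMP2 all 3 EMEM/F12 points lie between 16782 and 18009.

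Type IV collagen is the network collagen of basement membranes, made mostly of COL4A1 and COL4A2 chains. In RefSeq (GRCh38.p14) these genes start head to head on chromosome 13, at 110307157 and 110307284, with 126 bases between the starts. COL4A1 stood at 1006 and 1156 normalised reads in EMEM/F12 libraries 1 and 2, at 2515 in library 3 and at 2169, 2259 and 2095 in HPLM. COL4A2 stood at 1614 and 1834, then 4067, and at 3501, 3564 and 3352 in HPLM. Library 3 was again the highest of the 6 for both genes, and libraries 1 and 2 the lowest. The log2 ratios were 0.48 ± 0.45 and 0.47 ± 0.45 (SE), with adjusted p of 0.339 and 0.323 in the authors' deposited table, and 1.01 ± 0.11 and 1.01 ± 0.10 without library 3, with DESeq2 adjusted p of 7.87e-58 and 1.54e-79.

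The pair moved together closely. Per kb of merged exon, the ratio of COL4A1 to COL4A2 stayed between 0.809 and 0.830 in all 6 libraries, library 3 included, while each gene varied more than 2-fold between EMEM/F12 libraries 1 and 3. The other type IV pair, COL4A5 and COL4A6, also lies head to head, on the X chromosome, and was low. COL4A5 ranged from 42.3 to 69.5 normalised reads in EMEM/F12 and from 47.9 to 52.3 in HPLM. COL4A6 ranged from 13.4 to 22.8 and from 17.5 to 21.9. Their ranges overlapped between media, library 3 was the highest of the 6 for both, and neither gene was called with or without it, with adjusted p of 0.851 and 0.809 in the authors' deposited table. COL8A1, a short network collagen, stood at 104, 119 and 269 in EMEM/F12 libraries 1, 2 and 3 and at 239, 235 and 191 in HPLM. It was called higher in HPLM only without library 3, at a log2 ratio of 0.99 ± 0.14 (SE) and a DESeq2 adjusted p of 1.47e-08.

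Collagen VI forms beaded filaments around cells from COL6A1, COL6A2 and COL6A3, with COL6A5 and COL6A6 as chains of other tissues that can take the place of COL6A3. COL6A1 stood at 3743 and 3745 normalised reads in EMEM/F12 libraries 1 and 2, at 8981 in library 3 and at 7302, 7702 and 7247 in HPLM. COL6A2 stood at 2304 and 2311, then 7547, and at 6326, 6459 and 6264 in HPLM. COL6A3 stood at 3812 and 4096, then 13498, and at 12405, 13023 and 11894 in HPLM. For these 3 genes library 3 again exceeded every HPLM library. Their log2 ratios without library 3 were 0.99 ± 0.03, 1.46 ± 0.01 and 1.65 ± 0.06 (SE), and with it 0.43 ± 0.46, 0.65 ± 0.62 and 0.80 ± 0.64, none called in the authors' deposited table.

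COL6A6 went the other way. It stood at 297, 316 and 334 normalised reads in EMEM/F12 libraries 1, 2 and 3 and at 129, 133 and 122 in HPLM, so that every HPLM library lay below every EMEM/F12 library. Its mean was 316 ± 18.5 in EMEM/F12 and 128 ± 5.61 in HPLM (SD, n = 3 libraries), and it fell by 1.30 ± 0.06 (SE) on the log2 scale, with an adjusted p of 6.14e-20 in the authors' deposited table. COL6A5 was low, at 9.33 to 18.6 in EMEM/F12 and 23.9 to 27.7 in HPLM, without overlap, and missed the threshold at an adjusted p of 0.0627 in that table, while edgeR called it higher at 0.0095.

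The remaining 13 collagens include those that sit on fibre surfaces or span membranes, and of these 2 rose, 3 fell and 8 were not called in the authors' table. Over all genes 26.8% rose and 28.8% fell there. COL12A1, which coats type I fibres, stood at 466, 492 and 1810 normalised reads in EMEM/F12 libraries 1, 2 and 3 and at 1625, 1728 and 1600 in HPLM. COL7A1, the anchoring fibril collagen of skin, stood at 98.9, 108 and 333 and at 295, 308 and 295. COL16A1 stood at 131, 149 and 330 and at 291, 294 and 263. These followed the fibrillar collagens: without library 3 their log2 ratios were 1.79 ± 0.05, 1.53 ± 0.07 and 1.01 ± 0.10 (SE) and all were called by DESeq2, and with it they were 0.84 ± 0.69, 0.73 ± 0.61 and 0.48 ± 0.45 and none was called.

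Collagens IX and XXII fell. COL22A1, a collagen of tissue junctions (chr8:138588235-138914006), stood at 2150, 2319 and 1979 normalised reads in EMEM/F12 libraries 1, 2 and 3 and at 1082, 1068 and 1141 in HPLM. The media did not overlap and library 3 was the lowest of the EMEM/F12 libraries. Its mean was 2149 ± 170 in EMEM/F12 and 1097 ± 38.4 in HPLM (SD, n = 3 libraries), and it fell by 0.97 ± 0.07 (SE) on the log2 scale, with an adjusted p of 2.19e-45 in the authors' deposited table. COL9A3, a cartilage collagen, stood at 141, 151 and 121 and at 66.5, 83.8 and 78.7, and fell by 0.85 ± 0.13 on the same scale with an adjusted p of 5.27e-05 in that table. Its partner COL9A2 also fell, from 62.2 to 92.8 normalised reads in EMEM/F12 down to 29.4 to 42.8 in HPLM, at -1.23 ± 0.24 on the log2 scale and an adjusted p of 3.4e-05 in that table. The 2 that rose were both under 100 normalised reads: COL15A1, at 27.8, 31.4 and 90.2 against 81.7, 93 and 80.5, overlapped between media through library 3, and COL21A1, at 11.6 to 21.8 against 30.4 to 35.9, did not, with adjusted p of 0.0387 and 0.0386 in that table. Both calls were lost without any 1 of the other 5 libraries. COL18A1, whose end fragment is endostatin, at 515 to 586 against 487 to 509, was called neither with nor without library 3, and antisense genes cover 16.4% of its exon bases. COL13A1, COL19A1, COL25A1 and COL26A1 were not called either, and reached at most 57 normalised reads in any library.

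Summed over all 32 collagens, the share of all gene reads was 0.238%, 0.254% and 0.640% in EMEM/F12 libraries 1, 2 and 3 and 0.561%, 0.581% and 0.527% in HPLM. Library 3 thus held the largest collagen share of the 6. All 81 genes together took 0.648%, 0.684% and 1.19% in EMEM/F12 and 1.10%, 1.12% and 1.04% in HPLM. For the 27 genes at least 2-fold higher in library 3, the HPLM mean divided by library 3 had a median of 0.859 and a range of 0.597 to 1.85, with 20 of the 27 between 0.75 and 1. These genes were chosen for high values in library 3, which favours a ratio under 1, so the ratio is a description only. In 34 of the 81 genes EMEM/F12 libraries 1 and 2 lay below every HPLM library while library 3 did not, against 6.05% of all genes. Every HPLM library lay above every EMEM/F12 library in 12 genes, against 33.6% of all genes, and below in 24, against 35% of all genes.

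Some listed markers of cell state were higher in library 3 too, and others were not. Of 10 fibroblast markers outside the gene set, all in the table, 5 (DCN, PDGFRA, POSTN, FAP and TWIST2) were at least 2-fold higher in library 3 than in libraries 1 and 2, while LUM, PDGFRB, THY1, S100A4 and ACTA2 were not. Over all genes 3.03% were at least 2-fold higher there. Of the 10, 1 rose and 3 fell in the authors' table, and without library 3 DESeq2 called 6 higher and 3 lower. Over all genes 26.8% rose and 28.8% fell in that table, and without library 3 DESeq2 called 29.3% higher and 30.4% lower. Their summed level was 17325 to 17993 normalised reads in EMEM/F12 and 14173 to 14311 in HPLM, most of it THY1, at 7532 to 8115 and 8323 to 8503, and PDGFRB, at 6124 to 6704 and 2299.5 to 2390.1. Among 7 mesenchymal neuroblastoma markers, 4 (PRRX1, NOTCH2, FOSL1 and VIM) were at least 2-fold higher in library 3, the summed level was 6891 to 10307 in EMEM/F12 and 8817 to 9484 in HPLM. Of these 7, 1 rose and 1 fell in the authors' table, and without library 3 DESeq2 called 6 higher and 1, TWIST1, lower. The same shares of all genes stand beside these counts. VIM, the mesenchymal intermediate filament, stood at 2039, 2179 and 4516 in EMEM/F12 libraries 1, 2 and 3 and at 5068, 5148 and 4725 in HPLM. The 9 adrenergic markers were all lower in library 3, and for HAND2 it stood at 13340 against 14825 and 15096. Among 6 endothelial and 6 blood markers, TEK and CD14 alone could be analysed here, each under 100 normalised reads. The 4 analysed epithelial markers summed to 226 to 270 normalised reads in EMEM/F12 and 421 to 490 in HPLM, and 5 Schwann and glial markers to 538 to 625 and 727 to 764. The part of any cell mixture or cell state in the collagen levels was not tested, and in these bulk libraries fewer cells of a type and less RNA per cell cannot be told apart.

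**Figure D3:**
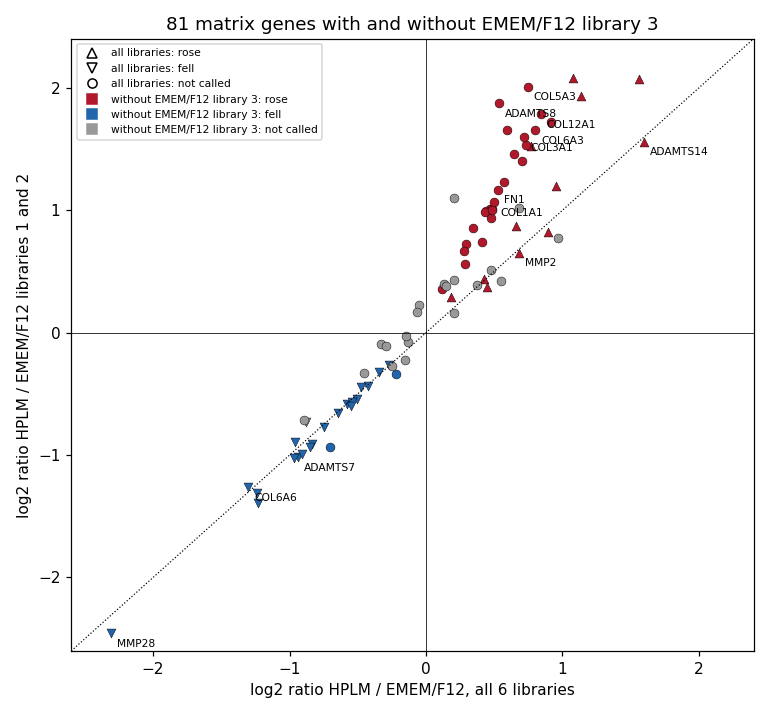
Log2 ratio of HPLM over EMEM/F12 for the 81 genes, with all 6 libraries on the horizontal axis and against EMEM/F12 libraries 1 and 2 on the vertical axis, with the line of equal values dotted. Shape gives the call with all libraries and colour the call without EMEM/F12 library 3. The 26 red circles above the line are the genes called higher only without library 3, and the fallers at lower left lie along the line.

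Upstream sequence is shown for 4 genes that stand for both patterns and whose windows hold no annotated untranslated region: COL7A1 and COL12A1, which were high in library 3, and COL6A6 and ADAMTS14, which were called in HPLM with and without it. Each is the 250 bases before the RefSeq start (GRCh38.p14), 5′ to 3′ on the gene's strand, and capitals mark matches on either strand to 5 motifs: GGGCGG for the GC box, CCAAT for the CCAAT box, TATAAA for the TATA box, TGANTCA for the AP-1 site and CACGTG for the E-box. The windows are chr3:48595330-48595579 on the minus strand for COL7A1, chr3:130516927-130517176 on the plus strand for COL6A6, chr6:75206054-75206303 on the minus strand for COL12A1 and chr10:70672256-70672505 on the plus strand for ADAMTS14.
COL7A1: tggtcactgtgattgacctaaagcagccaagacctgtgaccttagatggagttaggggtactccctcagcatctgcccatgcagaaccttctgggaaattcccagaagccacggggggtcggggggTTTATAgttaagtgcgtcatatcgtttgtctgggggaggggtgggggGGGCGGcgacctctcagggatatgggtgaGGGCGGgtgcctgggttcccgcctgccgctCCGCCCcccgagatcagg
COL12A1: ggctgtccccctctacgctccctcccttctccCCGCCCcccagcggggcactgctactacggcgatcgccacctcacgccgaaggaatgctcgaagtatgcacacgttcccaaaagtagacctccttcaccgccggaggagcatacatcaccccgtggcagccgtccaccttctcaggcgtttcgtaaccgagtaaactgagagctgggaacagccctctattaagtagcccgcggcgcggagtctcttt
COL6A6: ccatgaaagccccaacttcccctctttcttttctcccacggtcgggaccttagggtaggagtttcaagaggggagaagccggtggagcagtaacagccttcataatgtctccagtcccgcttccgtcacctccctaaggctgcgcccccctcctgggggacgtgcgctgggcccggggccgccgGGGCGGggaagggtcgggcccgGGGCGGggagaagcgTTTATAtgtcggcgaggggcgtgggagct
ADAMTS14: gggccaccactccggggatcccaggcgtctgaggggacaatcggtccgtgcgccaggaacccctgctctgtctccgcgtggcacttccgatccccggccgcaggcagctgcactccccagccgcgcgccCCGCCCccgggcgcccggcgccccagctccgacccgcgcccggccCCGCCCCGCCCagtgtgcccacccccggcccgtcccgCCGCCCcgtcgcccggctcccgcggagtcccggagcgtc

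COL7A1 held 3 GC boxes and 1 TATA box, COL6A6 held 2 GC boxes and 1 TATA box, COL12A1 held 1 GC box, and ADAMTS14 held 4 GC boxes, of which the middle pair overlap. No match to the other 3 motifs lay in these 4 windows. RefSeq promoters were matched for 52 of the 81 genes, with 66 starts. Of those 66 windows 69.7% held a GC box, 21.2% a CCAAT box, 9.09% a TATA box, 4.55% an AP-1 site and 3.03% an E-box. Over all 35116 RefSeq windows of the same length the shares were 42.6%, 32%, 10.7%, 6.57% and 6.34%. The matches are letters in a window and were not tested against the expression values.

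Laminins are cross-shaped basement membrane proteins built of an alpha, a beta and a gamma chain, and here the most abundant beta and gamma chains fell while 1 abundant alpha chain rose. LAMB1, the common beta chain (chr7:107923799-108003255), stood at 8152, 8320 and 7867 normalised reads in EMEM/F12 libraries 1, 2 and 3 and at 5506, 5515 and 5658 in HPLM. LAMC1, the common gamma chain, stood at 6198, 6208 and 6623 and at 4549, 4571 and 4522. LAMA5, an alpha chain of mature basement membranes, stood at 2407, 2330 and 2006 and at 3067, 2890 and 3237. The media did not overlap in any of these genes, and library 3 lay with the other EMEM/F12 libraries. LAMB1 fell by 0.55 ± 0.03 and LAMC1 fell by 0.48 ± 0.03 (SE) on the log2 scale, with adjusted p of 2.18e-39 and 3.19e-27 in the authors' deposited table. LAMA5 rose by 0.45 ± 0.09 with an adjusted p of 8.21e-11 in that table.

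LAMA4, the alpha chain of vessel walls and nerve, stood at 1691, 1722 and 1801 normalised reads in EMEM/F12 and at 1385, 1374 and 1342 in HPLM, and fell by 0.35 ± 0.03 (SE) on the log2 scale, with an adjusted p of 1.92e-08 in the authors' deposited table. LAMB2, the beta chain of synapses and kidney filters, stood at 1168, 1130 and 1427 in EMEM/F12 libraries 1, 2 and 3 and at 1392, 1416 and 1414 in HPLM. Library 3 was above every HPLM library for LAMB2, and the rise of 0.18 ± 0.11 passed narrowly at an adjusted p of 0.0407 in that table, a call lost when any library other than EMEM/F12 library 3 was left out (adjusted p of 0.137 or more). The remaining chains reached at most 121 normalised reads in any library. LAMA2, the muscle and nerve alpha chain, at 18.6, 16.3 and 56 against 72.2, 59.8 and 67.1, rose, as did LAMB3, at 7.21, 4.65 and 13.5 against 22.8, 31.3 and 20.6. Their log2 ratios were 1.13 ± 0.62 and 1.56 ± 0.49, with adjusted p of 0.0048 and 0.00748 in that table. The LAMA2 call was lost without EMEM/F12 library 1 or 2 or HPLM library 1 or 3, and the LAMB3 call without EMEM/F12 library 2 or HPLM library 2. LAMA3, at 39.2, 37.2 and 50.8 against 24.7, 23.9 and 20.6, fell with an adjusted p of 0.022 in the authors' deposited table and was not called without library 3, at a DESeq2 adjusted p of 0.0718, nor without HPLM library 2 or 3. LAMA1, at 63.9, 54.6 and 121 against 113, 107 and 74.2, was called higher only without library 3, at a DESeq2 adjusted p of 0.00697. LAMC3, at 26.8 to 36.3 against 14.7 to 29.5, was called neither way. Of the 11 laminin chains 4 rose, 4 fell and 3 were not called in the authors' table, where 26.8% of all genes rose and 28.8% fell. The sum over them was 0.0980%, 0.0984% and 0.103% of gene reads in EMEM/F12 and 0.0846%, 0.0837% and 0.0854% in HPLM.

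FN1, fibronectin, followed the fibrillar collagens. It stood at 9797 and 12204 normalised reads in EMEM/F12 libraries 1 and 2, at 29563 in library 3 and at 25464, 26873 and 21847 in HPLM. SPARC, a collagen-binding secreted protein, stood at 3777 and 4344, then 6259, and at 5264, 5432 and 4890 in HPLM. Library 3 was the highest of the 6 for both. FN1 had a log2 ratio of 0.52 ± 0.53 (SE) and an adjusted p of 0.339 in the authors' deposited table, and of 1.17 ± 0.18 without library 3, with a DESeq2 adjusted p of 4.31e-12. For SPARC the log2 ratios were 0.12 ± 0.23 and 0.36 ± 0.11, with adjusted p of 0.685 in that table and 0.000387 without library 3.

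The lysyl oxidases, copper enzymes that cross-link collagen and elastin, did not move as a block. LOXL2 stood at 1286, 1332 and 3016 normalised reads in EMEM/F12 libraries 1, 2 and 3 and at 2628, 2793 and 2460 in HPLM. LOX stood at 575, 676 and 1214 and at 1011, 1129 and 844. Both were highest in library 3 and were called higher in HPLM only without it, at log2 ratios of 1.00 ± 0.06 and 0.67 ± 0.17 (SE) with DESeq2 adjusted p of 3.06e-64 and 0.000347. LOXL3 stood at 595, 544 and 513 in EMEM/F12 and at 403, 375 and 348 in HPLM, without overlap, and fell by 0.55 ± 0.09 on the log2 scale with an adjusted p of 2.34e-07 in the authors' deposited table. Antisense genes cover 19.3% of the LOXL3 exon bases, and with a kit that keeps no strand its reads cannot be told apart from theirs. LOXL1, at 640 to 873 against 667 to 689, and LOXL4, at 53.6 to 66.3 against 77.9 to 92.1, were called by DESeq2 neither with nor without library 3. LOXL4 was called higher by edgeR with all libraries, at an adjusted p of 0.00988, and LOXL1 was called lower by DESeq2 without EMEM/F12 library 1, at 0.0259.

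Among the MMPs, MMP2, the gelatinase A that cuts type IV collagen and denatured collagen (chr16:55389700-55506691), was the most abundant of the 81 genes per kb of merged exon in HPLM and in EMEM/F12 libraries 1 and 2, and came after COL1A1 in EMEM/F12 library 3. It stood at 17639, 18009 and 16782 normalised reads in EMEM/F12 libraries 1, 2 and 3 and at 27993, 27658 and 28464 in HPLM. The media did not overlap, and library 3 was the lowest of all. The mean was 17477 ± 629 in EMEM/F12 and 28038 ± 405 in HPLM (SD, n = 3 libraries), and MMP2 rose by 0.68 ± 0.03 (SE) on the log2 scale, 1.60-fold, with an adjusted p of 2.22e-71 in the authors' deposited table. Without library 3 the log2 ratio was 0.65 ± 0.02. Per kb, MMP2 averaged 3613 normalised reads in EMEM/F12 libraries 1 and 2, 3402 in library 3 and 5684 in HPLM, and COL1A1 averaged 2241, 5474 and 4685.

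The membrane-bound MMPs split. MMP15 stood at 1864, 1889 and 1593 normalised reads in EMEM/F12 libraries 1, 2 and 3 and at 3299, 3246 and 3404 in HPLM, and rose by 0.90 ± 0.08 (SE) on the log2 scale with an adjusted p of 1.13e-45 in the authors' deposited table. MMP16 stood at 347, 410 and 387 and at 519, 499 and 519, and rose by 0.42 ± 0.07 with an adjusted p of 6.86e-05 in that table. MMP24, a brain-enriched member, stood at 1876, 1962 and 1590 and at 987, 921 and 979, and fell by 0.91 ± 0.09 with an adjusted p of 3.47e-31 there. None of these 3 overlapped between media. For MMP24, antisense genes cover 21.8% of the exon bases, and without strand their reads cannot be told apart. MMP14, which activates pro-MMP2 at the cell surface, behaved like the collagens: it stood at 568, 615 and 1335 and at 1066, 1106 and 1031, with a log2 ratio of 0.35 ± 0.43 and an adjusted p of 0.48 in that table, and of 0.85 ± 0.06 without library 3, with a DESeq2 adjusted p of 3.78e-28.

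MMP11, stromelysin 3, stood at 158, 166 and 159 normalised reads in EMEM/F12 and at 126, 97.6 and 135 in HPLM, and fell by 0.43 ± 0.14 (SE) on the log2 scale with an adjusted p of 0.0287 in the authors' deposited table, a call lost in 4 of the 6 fits that leave out a library (EMEM/F12 1 or 2, HPLM 1 or 2). MMP28, epilysin, showed the largest fall among the 81 genes at a low level, from 42.3, 38.4 and 29 to 5.70, 10.1 and 6.26, a change of -2.31 ± 0.31 on the log2 scale with an adjusted p of 4.03e-06 in that table. MMP1, the interstitial collagenase, at 33, 23.2 and 119 against 77, 80.1 and 108, and MMP19, at 13.4, 11.6 and 40.4 against 41.8, 42.3 and 39.3, were called higher only without library 3, with DESeq2 adjusted p of 1.37e-07 and 0.00014. MMP17, at 61.8, 66.3 and 35.3 against 35.2, 35 and 30.4, was called lower by DESeq2 only without it, with an adjusted p of 0.00287, and by edgeR with all libraries, with an adjusted p of 0.0292. MMP25, at 8.14 to 17.6 against 11.6 to 13.3, was called neither way. Antisense genes cover 17.4% of the MMP19 exon bases, 35.2% of those of MMP25 and, among the laminins, 11.1% of those of LAMA1. Of the 11 MMPs 3 rose, 3 fell and 5 were not called in the authors' table, which is close to the 26.8% higher and 28.8% lower of all genes. Their summed share of gene reads was 0.112%, 0.115% and 0.114% in EMEM/F12 and 0.179%, 0.176% and 0.181% in HPLM, and most of it was MMP2.

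Of 17 measured ADAMTS proteases 7 fell, 2 rose and 8 were not called in the authors' table, against 28.8% of all genes lower and 26.8% higher. ADAMTS7, which cuts cartilage oligomeric matrix protein, stood at 4688, 4540 and 3887 normalised reads in EMEM/F12 libraries 1, 2 and 3 and at 2347, 2283 and 2220 in HPLM. ADAMTS1, a proteoglycan-cutting member, stood at 1628, 1670 and 1886 and at 950.2, 865 and 848. ADAMTS9, which cuts versican and aggrecan, stood at 1114, 1239 and 997 and at 655, 641 and 586. No EMEM/F12 library overlapped an HPLM library in these genes. They fell by 0.94 ± 0.08, 0.96 ± 0.08 and 0.83 ± 0.10 (SE) on the log2 scale, with adjusted p of 3.03e-48, 1.46e-37 and 1.46e-20 in the authors' deposited table. Without library 3 the ratios were -1.01 ± 0.03, -0.89 ± 0.05 and -0.91 ± 0.09.

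ADAMTS19 stood at 3486, 3499 and 3232 normalised reads in EMEM/F12 and at 2315, 2407 and 2468 in HPLM. ADAMTS3, which removes the amino-terminal propeptide of procollagens, stood at 1450, 1550 and 1484 and at 997, 956 and 1052. ADAMTS4, an aggrecanase, stood at 323, 301 and 298 and at 175, 178 and 195. These also fell without overlap, by 0.51 ± 0.05, 0.58 ± 0.05 and 0.75 ± 0.06 (SE) on the log2 scale, with adjusted p of 3.91e-21, 3.03e-17 and 3.03e-08 in the authors' deposited table. ADAMTS16 fell at a low level, from 36.3 to 43 normalised reads in EMEM/F12 down to 15.2 to 19.3 in HPLM, at -1.24 ± 0.13 on the log2 scale and an adjusted p of 0.00213 in that table.

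ADAMTS14, like ADAMTS3 a procollagen N-propeptidase, went the other way. It stood at 70.1, 39.5 and 50.8 normalised reads in EMEM/F12 libraries 1, 2 and 3 and at 154, 154 and 177 in HPLM, with no overlap and with library 3 between the other EMEM/F12 libraries. Its mean was 53.5 ± 15.5 in EMEM/F12 and 162 ± 13.4 in HPLM (SD, n = 3 libraries), and it rose by 1.60 ± 0.25 (SE) on the log2 scale, 3.02-fold, with an adjusted p of 1.72e-12 in the authors' deposited table. ADAMTS6, at 11.3, 9.30 and 41.5 against 44.7, 41.4 and 44.7, also rose, by 1.07 ± 0.73 with an adjusted p of 0.0295 in that table, with library 3 at the HPLM level, a call lost without any 1 of the other 5 libraries. ADAMTS8, at 7.21, 4.65 and 33.2 against 18.1, 23 and 24.1, was called higher, and ADAMTS17, at 727, 717 and 561 against 554, 554 and 609, lower only without library 3, with DESeq2 adjusted p of 0.00431 and 0.000137. ADAMTS2, the main procollagen N-propeptidase of skin, stood at 249, 286 and 413 against 248, 272 and 234 and was not called, except lower without EMEM/F12 library 1, at a DESeq2 adjusted p of 0.0112. ADAMTS13, the von Willebrand factor protease, at 225 to 271 against 217 to 233, was not called either, nor were ADAMTS5, ADAMTS10, ADAMTS12 and ADAMTS15, which reached at most 114 normalised reads in any library.

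TIMPs, the secreted inhibitors of metalloproteinases, were called in both directions. TIMP2, which also takes part in pro-MMP2 activation by MMP14, stood at 6473, 6389 and 6243 normalised reads in EMEM/F12 libraries 1, 2 and 3 and at 4099, 4029 and 4096 in HPLM. TIMP3, which binds to the matrix, stood at 1850, 1985 and 1957 and at 1611, 1587 and 1592. TIMP1 stood at 993, 1056 and 1507 and at 1938, 1838 and 1855, so that library 3 lay between the other EMEM/F12 libraries and HPLM. TIMP2 fell by 0.64 ± 0.02 and TIMP3 fell by 0.27 ± 0.03 (SE) on the log2 scale, with adjusted p of 1.25e-53 and 4.97e-06 in the authors' deposited table. Antisense or overlapping genes cover 10.0% of the TIMP2 exon bases. TIMP1 rose by 0.66 ± 0.20 with an adjusted p of 0.00188 in that table, and without library 3 by 0.87 ± 0.05.

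**Figure D4:**
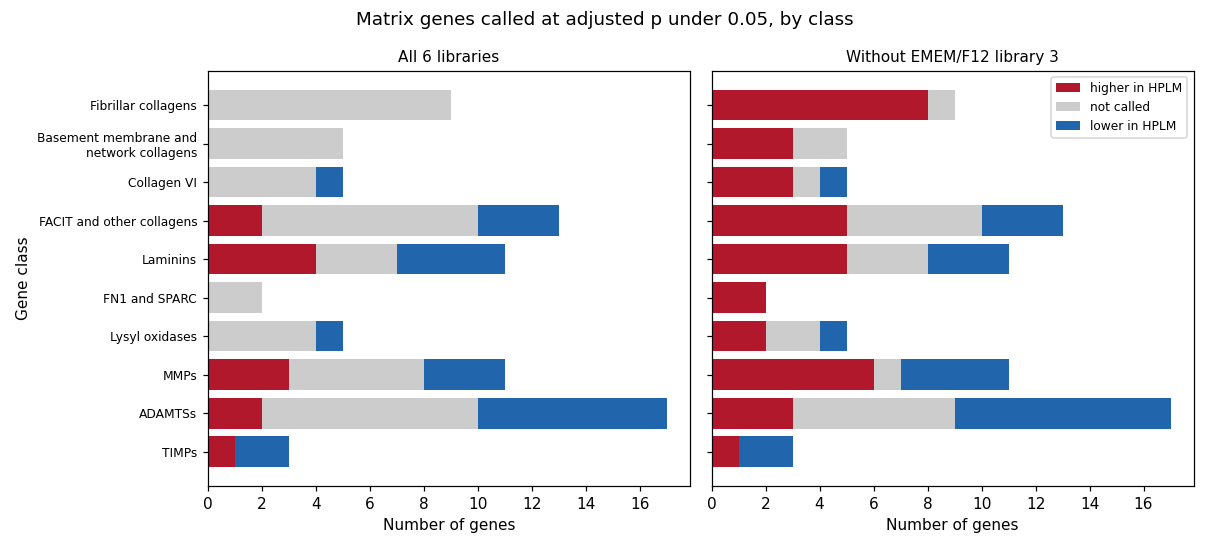
Number of genes in each class called higher in HPLM (red), lower (blue) or not called (grey) at an adjusted p under 0.05, with all 6 libraries in the authors' deposited table on the left and in DESeq2 without EMEM/F12 library 3 on the right. The 9 fibrillar collagens go from 0 to 8 called higher, while the TIMPs do not change and the ADAMTS genes change by 1 in each direction. Over all genes 26.8% were higher and 28.8% lower on the left, and 29.3% and 30.4% on the right.

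Ratios between partner genes, each per kb of merged exon, compare genes within a library and do not depend on its scaling. COL1A1 over COL1A2 was 3.54 and 3.45 in EMEM/F12 libraries 1 and 2, 3.12 in library 3 and 3.12, 3.12 and 3.07 in HPLM. COL6A1 over COL6A2 was 1.64 and 1.63, then 1.20, and 1.16, 1.20 and 1.17 in HPLM. COL5A1 over COL5A2 was 2.00 and 1.77, then 1.07, and 1.03, 1.06 and 1.07 in HPLM. In these 3 ratios library 3 stood near the HPLM values. COL6A3 over COL6A1 was 0.277 and 0.298, then 0.409, between the media, and 0.462, 0.460 and 0.447 in HPLM. COL6A3 over COL6A2 was 0.454 and 0.486, then 0.491, beside the other EMEM/F12 libraries, and 0.538, 0.553 and 0.521 in HPLM. FN1 over COL1A1 overlapped between media, at 0.261 to 0.312 in EMEM/F12 and 0.288 to 0.315 in HPLM.

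LAMB1 over LAMC1, the common laminin chains, was 1.36, 1.38 and 1.23 in EMEM/F12 libraries 1, 2 and 3 and 1.25, 1.25 and 1.29 in HPLM, and overlapped through library 3. Except for MMP2 over MMP14, the other laminin and protease ratios given here set library 3 on the EMEM/F12 side of HPLM. LAMA5 over LAMC1 was 0.228, 0.221 and 0.178 in EMEM/F12 libraries 1, 2 and 3 and 0.397, 0.372 and 0.421 in HPLM. LAMB1 over LAMB2 was 5.89, 6.21 and 4.65 and 3.34, 3.28 and 3.37. MMP2 over TIMP2 was 3.11, 3.22 and 3.07 and 7.80, 7.84 and 7.93, a mean of 3.13 ± 0.0768 against 7.86 ± 0.07 (SD, n = 3 libraries), or 2.51-fold. Enzyme and inhibitor thus moved in opposite directions without overlap. TIMP1 over TIMP2 was 0.561, 0.605 and 0.882 and 1.73, 1.67 and 1.66. MMP14 over TIMP2 was 0.111, 0.121 and 0.270 and 0.328, 0.347 and 0.318, with library 3 nearer to HPLM than to EMEM/F12 libraries 1 and 2. MMP2 over MMP14 was 28.1, 26.5 and 11.4 and 23.8, 22.6 and 25.0. In that ratio library 3 lay below every HPLM library, while EMEM/F12 libraries 1 and 2 lay above.

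**Figure D5:**
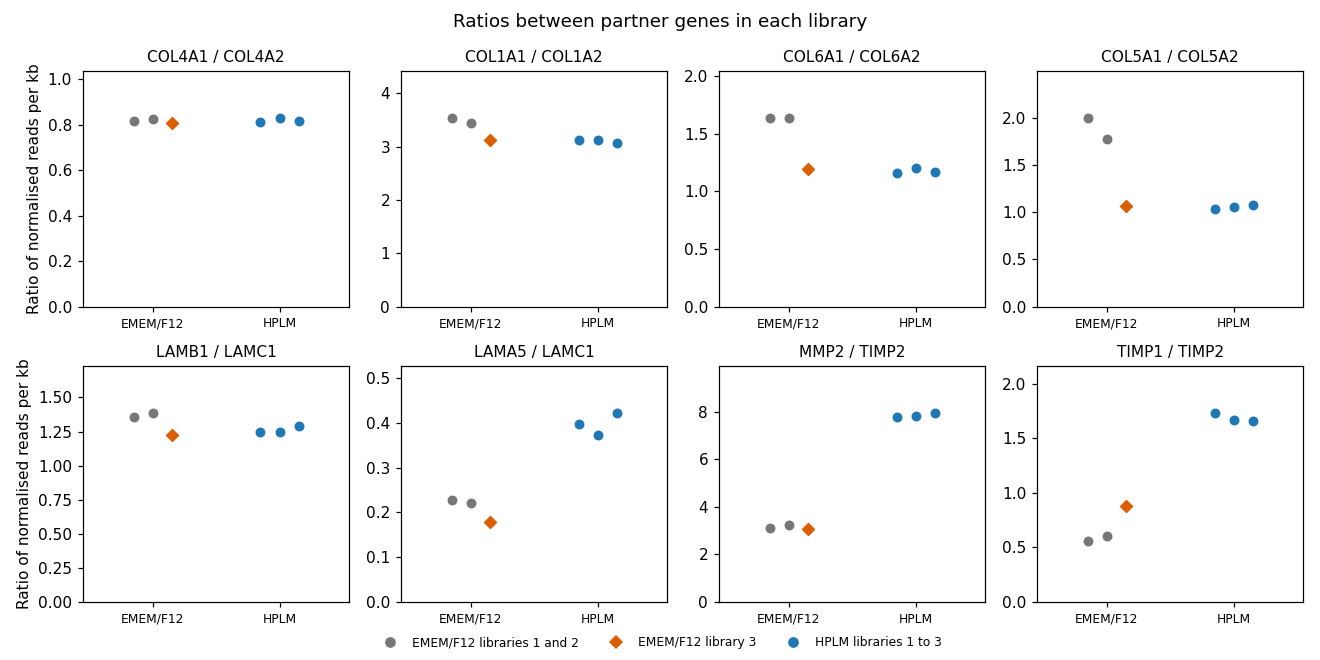
Ratios of normalised reads per kb between partner genes in the 6 libraries, on linear axes from 0 (grey EMEM/F12 1 and 2, orange diamond EMEM/F12 3, blue HPLM). COL4A1 over COL4A2 is level at 0.809 to 0.830, the other 3 collagen ratios drawn, COL1A1 over COL1A2, COL6A1 over COL6A2 and COL5A1 over COL5A2, place library 3 beside HPLM, and MMP2 over TIMP2 places it beside EMEM/F12 libraries 1 and 2.

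Genes that process, partner or receive the matrix were counted from lists of known pathway members. The log2 values of the genes named from these lists use all libraries of both media, library 3 included. Each count stands against 26.8% of all genes higher and 28.8% lower in the authors' table, and against 29.3% and 30.4% by DESeq2 without library 3. Of 24 measured collagen biosynthesis genes 5 rose and 11 fell in the authors' table, and without library 3 DESeq2 called 9 higher and 10 lower. P4HA2, a prolyl hydroxylase subunit, and SERPINH1, the collagen chaperone HSP47, rose by 1.03 ± 0.05 and 0.68 ± 0.11 (SE) on the log2 scale. PCOLCE, which enhances procollagen cleavage, fell by 1.00 ± 0.06, and PEPD, the prolidase that recycles proline, fell by 0.86 ± 0.04.

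Of 17 basement membrane partners 2 rose and 4 fell, against 26.8% and 28.8% of all genes, and 10 were called higher and 4 lower without library 3, against 29.3% and 30.4%. AGRN, agrin, rose by 1.04 ± 0.09 (SE) on the log2 scale, while NID2, nidogen 2, fell by 1.36 ± 0.07 and FRAS1 fell by 0.89 ± 0.08. Of 37 other matrix glycoproteins 5 rose and 10 fell, and 16 and 10 were called without library 3. MFAP4 and ECM1 rose by 1.02 ± 0.03 and 0.96 ± 0.39. MFAP2 and ELN, elastin, fell by 2.29 ± 0.12 and 1.55 ± 0.07. Of 11 proteoglycan and hyaluronan genes 0 rose and 4 fell in the authors' deposited DESeq2 table, with 0 higher at an unadjusted p under 0.05, 0 higher by edgeR on the recovered reads, and 2 called higher without library 3. Among the fallers VCAN, versican, fell by 1.09 ± 0.05 and LUM, lumican, fell by 0.98 ± 0.14.

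Among protease partners, 2 of 11 listed protease regulators and ADAMTS-like genes rose and 0 fell in the authors' deposited DESeq2 table. There, 0 were lower at an unadjusted p under 0.05, and 0 were lower by edgeR. Over all genes 26.8% were higher and 28.8% lower in that table. Without library 3 DESeq2 called 5 of the 11 higher, against 29.3% of all genes. SERPINE2, an inhibitor of thrombin and plasminogen activators, rose by 1.20 ± 0.08 (SE) on the log2 scale. ADAMTSL2, an ADAMTS-like gene, rose by 0.85 ± 0.07. In the plasminogen system only PLAT, tissue plasminogen activator, was called among 6 genes, and it fell by 0.22 ± 0.07. Without library 3, 4 of those 6 were called higher. Of 16 membrane and lysosomal proteases 7 rose and 3 fell, with CTSD, cathepsin D, and ADAM17, the TNF-shedding enzyme, up by 0.65 ± 0.03 and 0.60 ± 0.06, and ADAM11 and ADAM15 down, at -1.20 ± 0.11 and -0.76 ± 0.07.

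Of 21 measured matrix receptors 11 rose and 5 fell, against 26.8% and 28.8% of all genes, and 13 were called higher and 5 lower without library 3, against 29.3% and 30.4%. ITGA11, the integrin subunit for fibrillar collagen, rose by 1.24 ± 0.06 (SE) on the log2 scale and ITGA3, a laminin-binding subunit, rose by 0.90 ± 0.23. ITGA9, a subunit that binds tenascin and osteopontin, fell by 1.78 ± 0.10 and ITGB5, which pairs with ITGAV, fell by 1.60 ± 0.06. DDR1 and DDR2, the collagen-binding receptor kinases, were among the risers.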

How the data were processed

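Polyadenylated RNA of BE(2)-C cells in 2 media was extracted on RNeasy columns and made into libraries with a TruSeq v2 kit, per the labels' protocols, a kit that keeps no strand. The submitters' processing notes list Subread 1.5.2, STAR 2.5.2b, Trimmomatic 0.36, DESeq2 and GRCh38 without saying what each did, and the annotation release is not given in the sources used here. Each gene has a log2 fold change of HPLM over EMEM/F12 deposited by the authors, per the file headers. The deposited p-value of each gene and its adjusted form come from the authors too. The signal in each library column is read counts scaled by the authors with 1 factor per library, and whole reads were recovered for 100% of the deposited values within 0.01 reads.

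From these were computed means, SDs, log2 ratios of means with delta-method standard errors, and levels per kb of merged exon in GENCODE release 29. A gene was called at an adjusted p under 0.05 in the authors' DESeq2 table, adjusted over all lines. DESeq2 1.42.0 on the recovered reads gave the same 8905 calls of 8905, and it was rerun without each library. edgeR 4.0.16 was an alternative. Both tools were tested on simulated data. Where the text gives adjusted p-values without EMEM/F12 library 3, they come from this DESeq2 rerun. Of 16051 lines 46 are spike-ins, at 0.804% to 0.887% of reads, and were left out of counts. The lowest total in the table is 61 reads, and 81 of 81 matrix genes had a mean of at least 10 normalised reads, 48 of at least 100.

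Values per library are printed for called genes with a mean of at least 100 normalised reads, chain partners and laminins, and for further genes chosen after their values were seen. The genes, lists and tests were chosen with earlier results of these data known. Sensitivity to thresholds, scaling, filters, a library-number block and left-out libraries was computed. Some genes are counted but not reported here by name.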

Additional observations from a re-analysis of the deposited data

How the results depend on the processing

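With all 6 libraries 12 matrix genes rose and 21 fell. The number that rose became 7 when only genes averaging 100 or more normalised reads were counted, where 17 fell. It became 4 at an absolute log2 fold change of at least 1, where 4 fell. With the library number as a block edgeR called 28 higher and 22 lower. The numbers come only from column names, and nothing states that same-numbered libraries belong together. Deviations from the medium's mean had correlations of -0.0774, -0.143 and -0.244 between same-numbered libraries over 11056 genes. With so few libraries per medium, these values cannot decide whether such libraries are paired. Leaving out libraries gave 6 (without EMEM/F12 library 2) to 38 risers (without EMEM/F12 library 3), 7 without any 1 HPLM library and 9 without EMEM/F12 library 1, and 19 to 22 fallers. An edgeR fit without EMEM/F12 library 3, chosen after seeing the data, called 42 higher and 24 lower. Other thresholds, scalings and filters gave 8 to 15 risers and 19 to 25 fallers, and medians of 0.22 to 0.30. Over the fits that leave out 1 library, signs turned only in 7 genes not called with all libraries. The log2 fold change ranged from -0.21 to 0.17 for COL4A5, -0.014 to 0.39 for COL4A6, -0.062 to 0.40 for ADAMTS12, -0.0098 to 0.42 for ADAMTS15, -0.129 to 1.10 for COL25A1, -0.30 to 0.21 for MMP25 and -0.025 to 0.35 for SPARC. The turned values for COL25A1 included -0.079 and -0.038. All turned values had adjusted p of 0.628 or more, and the cause was not tested. Of 33 called genes 25 kept their call without each library. The 8 others were LAMB2, MMP11 and 6 genes with means under 100 normalised reads, and why was not tested.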
